A study of Mus musculus with 32 samples.

Results

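The small nucleolar RNAs and small Cajal body RNAs of the mouse retina were described here from the deposited table of gene expression. Their members were every entry whose name begins with Snord, Snora or Scarna. This gave 123 of the 26630 entries, made up of 76 Snord (C/D class), 38 Snora (H/ACA class) and 9 Scarna (Cajal body) entries. The 16 RNA libraries came from C57BL/6J female mice, 1 retina each, 9 from mice that lived in orbit for 37 days and 7 from mice kept on the ground in the same kind of housing. The labels give an age of 21 weeks and name no mutation or transgene in either group. Carcasses of both groups had been frozen whole and were thawed before dissection, so that the retinas of both groups had passed through freezing. The library of mouse M21 is named as spaceflight by its source and as ground control by its condition label, and it was kept in the spaceflight group.

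Small nucleolar RNAs guide chemical changes on other RNAs. C/D RNAs direct the methyltransferase fibrillarin to a ribose of ribosomal RNA, H/ACA RNAs direct the pseudouridine synthase dyskerin to a uridine, and Cajal body RNAs do the same for the small nuclear RNAs of the spliceosome. A few members, among them Snord13, Snord118 and Snora73, take part in cutting and folding the ribosomal RNA precursor. In mammals most are cut out of introns of a host gene after splicing, which is often a ribosomal protein gene or a non-coding RNA gene of the Snhg family.

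Positions were found for 122 of the 123 members in the RefSeq annotation of GRCm38.p6, all but Snord116. Of these, 112 lay in an intron of a gene on the same strand, 6 overlapped an exon of such a gene, and 4 had no host, namely Scarna2, Snord13, Snord118 and Snord89. The hosts numbered 86, and 55 members shared a host with another member. Ribosomal protein genes held 32 members and genes named Snhg or Gas5 held 22. The annotated lengths ran from 28 to 221 bases with a median of 68 in the C/D class, from 56 to 205 with a median of 120.5 in the H/ACA class, and from 42 to 275 with a median of 118 in the Cajal body class.

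Of the C/D members above 0 in every library, 4 of the 5 with the highest mean FPKM are shown with the parts from which the class is named (Snord15b is the other). In the lines that follow, from RefSeq GRCm38.p6, capitals mark the letters TGATGA (the C box) within the first 20 bases and CTGA (the D box) within the last 15 bases. Snord104 lies at chr11:106500991-106501063 on the plus strand in an intron of Gm36220. Snord32a and Snord33 lie in introns of the ribosomal protein gene Rpl13a, at chr7:45127383-45127463 and chr7:45126864-45126945 on the minus strand. Snord22 lies in an intron of Snhg1, at chr19:8725866-8725991 on the plus strand, and holds CTGA but not the full letters TGATGA.
Snord104: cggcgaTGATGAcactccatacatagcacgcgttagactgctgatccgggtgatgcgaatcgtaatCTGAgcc
Snord32a: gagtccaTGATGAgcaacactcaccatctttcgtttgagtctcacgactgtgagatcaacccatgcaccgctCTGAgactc
Snord33: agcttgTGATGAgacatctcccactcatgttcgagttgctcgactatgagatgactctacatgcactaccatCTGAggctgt
Snord22: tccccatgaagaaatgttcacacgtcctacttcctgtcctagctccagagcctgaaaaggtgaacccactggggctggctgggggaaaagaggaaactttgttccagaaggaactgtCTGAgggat

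The H/ACA members are known by the letters ACA close to their 3′ end, here marked in capitals where they stand exactly 3 bases from it. Snora73a and Snora73b, a pair of RNAs used in the cutting of the ribosomal RNA precursor, lie in introns of Snhg3 on the minus strand, at chr4:132352775-132352979 and chr4:132352322-132352526. They differ by 7 of 205 bases (96.6% identity), so that the division of reads between them is uncertain. Scarna13, a Cajal body RNA at chr12:105031075-105031349 on the minus strand in an intron of Snhg10, carries the same letters. Scarna2, a guide of the U2 small nuclear RNA that is transcribed by itself, is annotated with only 61 bases at chr3:108554342-108554402 on the minus strand, and has no ACA at that place, while CTGA stands within its last 15 bases (not in capitals here).
Snora73a: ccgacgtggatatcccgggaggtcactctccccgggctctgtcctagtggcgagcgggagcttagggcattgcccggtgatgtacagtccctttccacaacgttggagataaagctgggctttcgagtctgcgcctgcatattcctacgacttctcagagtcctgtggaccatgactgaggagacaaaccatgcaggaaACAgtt
Snora73b: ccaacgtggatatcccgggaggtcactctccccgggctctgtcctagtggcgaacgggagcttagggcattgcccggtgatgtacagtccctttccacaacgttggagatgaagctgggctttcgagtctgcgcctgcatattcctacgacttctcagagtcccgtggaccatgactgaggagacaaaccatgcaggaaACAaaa
Scarna13: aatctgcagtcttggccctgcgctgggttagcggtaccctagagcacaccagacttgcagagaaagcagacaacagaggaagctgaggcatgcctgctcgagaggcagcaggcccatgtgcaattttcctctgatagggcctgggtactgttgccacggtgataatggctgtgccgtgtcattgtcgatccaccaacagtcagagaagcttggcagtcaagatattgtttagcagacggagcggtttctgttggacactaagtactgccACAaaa
Scarna2: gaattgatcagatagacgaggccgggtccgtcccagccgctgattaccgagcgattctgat

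Across the members the motifs followed the names. CTGA stood within the last 15 bases of 73 of the 75 C/D members with a position, against 2 of 38 H/ACA members and 9 of the 122 stretches of equal length just after the members (7.38%). The full letters TGATGA stood within the first 20 bases of 25 C/D members, of none of the 38 H/ACA members, and of 1 of the 122 stretches just before the members (0.820%). ACA at 3 bases from the end was found in 27 of 38 H/ACA members, in 2 of 75 C/D members, in 2 of 9 Cajal body members and in 3 of the 122 stretches just after the members (2.46%). Only the member's own strand was searched, and variant forms of the boxes were not counted.

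The values are FPKM, fragment numbers scaled by transcript length and by the mapped fragments of the library, as the authors computed them. The length that entered the scaling of each short RNA is not known here. Many members had no signal in this table. A total of 47 members (38.2%) were listed at 0 in all 16 libraries, against 14.0% of the 26507 other entries. By class these were 39 of 76 C/D, 6 of 38 H/ACA and 2 of 9 Cajal body members. At the other end, 19 members were above 0 in every library (9 C/D, 8 H/ACA and 2 Cajal body), and the remaining 57 were at 0 in some libraries and above 0 in others. An entry at 0 is not shown to be absent, since Rn7sk, an abundant RNA of every cell, was also listed at 0 in 3 libraries and lay between 166969 and 372469 in the other 13.

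Zeros were fewer among the longer members. Of the 46 members under 70 bases, 32 were at 0 in every library and none was above 0 in every library. Among the 32 members from 70 to under 100 bases, 11 were always at 0 and 5 never. Among the 33 members from 100 to under 140 bases, 3 were always at 0 and 4 never. Of the 11 members of 140 bases or more, 10 were above 0 in every library and none was at 0 throughout. The classes differ in length, with 40 C/D members against 3 H/ACA members under 70 bases, 30 of the 32 members from 70 to under 100 bases in the C/D class, and 28 of the 33 from 100 to under 140 bases in the H/ACA class, so class and length cannot be told apart.

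**Figure D1:**
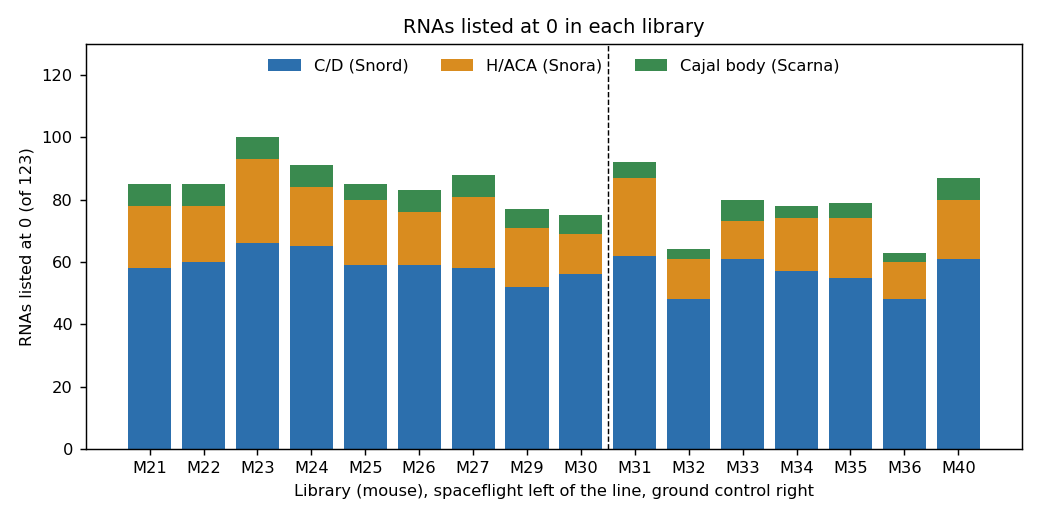
Number of members listed at 0 in each library, of 123, stacked by class. The spaceflight libraries have 75 to 100 members at 0 and the ground control libraries 63 to 92, and M32 and M36 have the fewest, 64 and 63.

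The number of members at 0 was 75, 85 and 100 (lowest, median and highest) in the spaceflight libraries and 63, 79 and 92 in the ground control libraries. The ranges overlapped, and the 2 ground libraries M32 and M36 had the fewest zeros of all 16, at 64 and 63. These counts are given as a description and were not tested.

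When a short member was above 0 its value was large. The lowest value above 0 was 478 FPKM among members under 70 bases, 37.2 among those from 70 to under 100 bases, 2.36 among those from 100 to under 140 bases and 1.48 among those of 140 bases or more. The median values above 0 were 7699, 653, 46.4 and 179 in the same order. Over the 76 members above 0 in at least 1 library, the mean FPKM and the length had a Spearman coefficient of -0.46, and over the 19 members above 0 in every library one of -0.73. These points share the libraries and the same division by length.

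**Figure D2:**
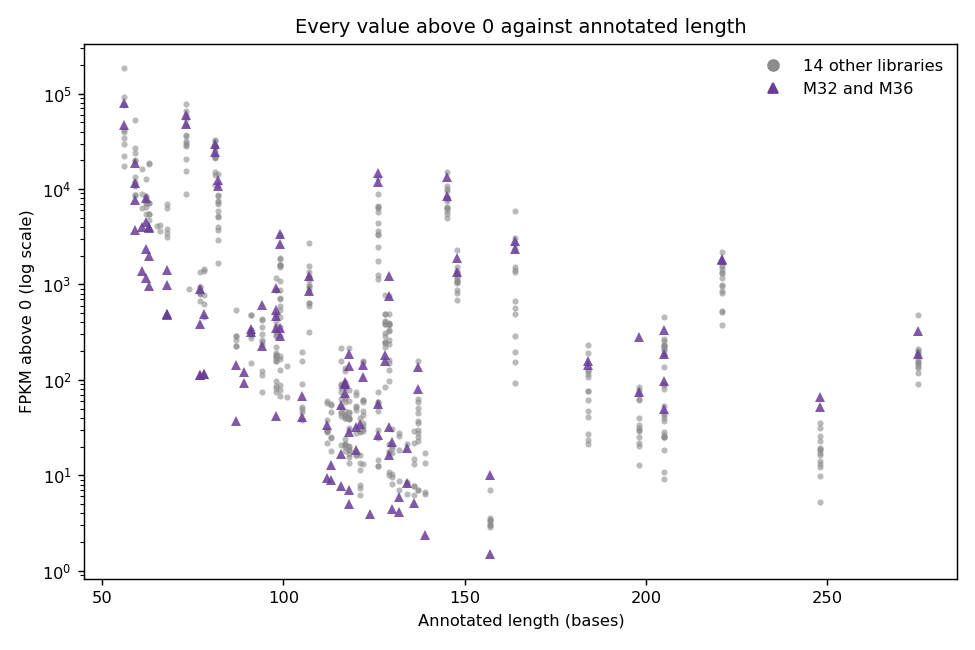
Every value above 0 of every member (FPKM, log axis) against the member's annotated length in bases; purple triangles are M32 and M36, grey points the 14 other libraries. The floor of the values falls from 478 FPKM under 70 bases to 1.48 at 140 bases or more, and the lowest points are mostly those of M32 and M36.

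Within a library, members of one length often took the same value or whole multiples of it. Of 65 pairs of members of equal length, both above 0 in the same library and within a ratio of 5 of each other, 44 had a ratio within 0.5% of a whole number (67.7%), and 14 had values within 0.5% of each other. Of 4682 pairs of unequal length, 121 did so (2.58%). In M25, Snord11 and Snord57, both of 63 bases, were each at 7223 FPKM. In M30, Snord1b and Snord83b, both of 77 bases, were each at 941. In M29, Scarna17 was at 6426 and Snord49a at 12851, a ratio of 2 at 62 bases. Values of this size for the short members thus moved in a few equal steps, and the lowest of these values was 973 FPKM or more at 59 to 63 bases.

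The height of the step differed between libraries. Among the 16 members of 59 to 63 bases, the lowest value above 0 was 973 to 1162 FPKM in M32 and M36, and 4732 to 20058 in the 13 other libraries that had one. Among the 6 members of 76 to 78 bases it was 113 to 114 in M32 and M36 and 457 to 941 in 8 other libraries. At 110 to 130 bases (25 members) the ranges came closer, with 3.94 to 4.39 in M32 and M36 and 6.22 to 21.95 in the other 14. For rarely read entries of the whole table, never above 0.3 FPKM, the commonest ratio of a library's value to that of M36 was 1.01 to 1.64, and that of M32 was 1.01. The libraries thus stood much closer to each other for those entries than for members under 80 bases, and the cause of the lower steps in M32 and M36 was not tested. Without them, 51 members instead of 47 were at 0 in every library.

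C/D RNAs held nearly all of the FPKM of the members. FPKM divide by length, but values of short members stood higher than their length alone would give. Outside M32 and M36, the lowest value above 0 per library had a median of 8488 FPKM at 59 to 63 bases. At 110 to 130 bases that median was 11.96. Most C/D members were short, so these are not shares of reads. The order of the classes in FPKM is therefore not shown to be an order in RNA amount. Their share of all FPKM was 5.35%, 11.5% and 15.1% (lowest, median and highest of 16 libraries). The H/ACA share was 0.117%, 0.289% and 0.431%. The Cajal body share was 0.00833%, 0.0248% and 1.41%. The C/D share exceeded the H/ACA share in 16 of 16 libraries, and the H/ACA share exceeded the Cajal body share in 11 of 16. Among the members above 0 in every library, the median FPKM per library was 1175 to 12450 for C/D, 86.3 to 387 for H/ACA and 54.1 to 258 for Cajal body RNAs, with C/D above H/ACA in 16 libraries and H/ACA above Cajal body in 14. Snord104, Snord99 and Snord32a together made 36.1% to 78.7% of the FPKM of all members, and the single highest member was Snord104 in 8 libraries, Snord99 in 6 and another in 2.

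The share held by all members was 5.48%, 7.76% and 15.3% in spaceflight (lowest, median and highest; mean 9.27% ± 3.52, SD, n = 9) and 7.95%, 13.2% and 15.4% on the ground (mean 12.6% ± 2.29, SD, n = 7). The spaceflight libraries spread over nearly the whole range, 6 of the 7 ground libraries lay at 12.4% or more, and the groups overlapped. The C/D share was 8.89% ± 3.43 in spaceflight and 11.8% ± 2.52 on the ground (mean ± SD). The H/ACA share was 0.258% ± 0.0938 and 0.303% ± 0.0742. The Cajal body share was 0.123% ± 0.236 and 0.539% ± 0.554, and its higher values came with Scarna2 or Scarna17, of 61 and 62 bases. The difference in the share of all members, spaceflight minus ground, was -3.37 percentage points with all libraries, -3.22 without M32 and M36, -2.12 with M21 as ground control and -5.86 in right retinas alone. For the H/ACA share it was -0.045, and -0.026 without M32 and M36. These shares sum over chosen members and carry no test. The share of FPKM held by all short structured RNAs (the members, spliceosomal, Y, 7S, RNase, vault and micro RNAs, and 24 entries without a name) was 52.1% to 82.0% in spaceflight and 66.5% to 80.9% on the ground.

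**Figure D3:**
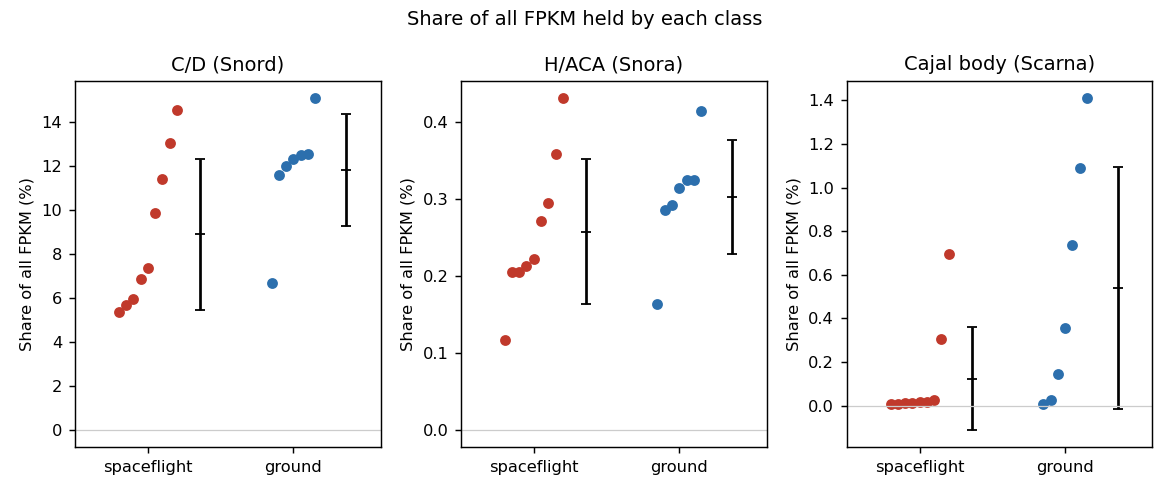
Share of all FPKM (%) held by the C/D, H/ACA and Cajal body members, 1 point per library, with the group mean ± SD in black, on separate axes for each class. The 9 spaceflight libraries spread from 5.35% to 14.5% in the C/D panel and 6 of the 7 ground libraries lie at 11.6% or more.

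To compare spaceflight with ground control, log2(FPKM + 0.1) was fitted with limma over all 12460 entries at 1 FPKM or more in each of the 16 libraries, and an entry was called changed at a fold of 1.2 or more, a p of 0.05 or less and an adjusted p of 0.3 or less. None of the 19 members tested was called. Over all entries 10 (0.0803%) were called higher and 14 (0.112%) lower in spaceflight. The unadjusted p was under 0.05 for 7 of the 19 members and for 1418 of the 12460 entries, and the lowest adjusted p of a member was 0.35 (limma, Benjamini-Hochberg). The log2 difference, spaceflight minus ground, was negative for 18 of the 19 members with a median of -0.50, against -0.01 over all entries tested. Entry into this test required a value in every library, so that these 19 do not stand for the 123.

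The other short structured RNAs of the table had differences of the same sign. The 18 of them in the same fit, which include the Y, spliceosomal and RNase RNAs, had a median log2 difference of -0.65, and 17 were negative. The 72 host genes tested had a median of 0.00, with 38 negative, and none was called. Whether the members' differences can be separated from those of short RNAs in general was not tested, and in retina lysates fewer cells of a type and less RNA per cell cannot be told apart.

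**Figure D4:**
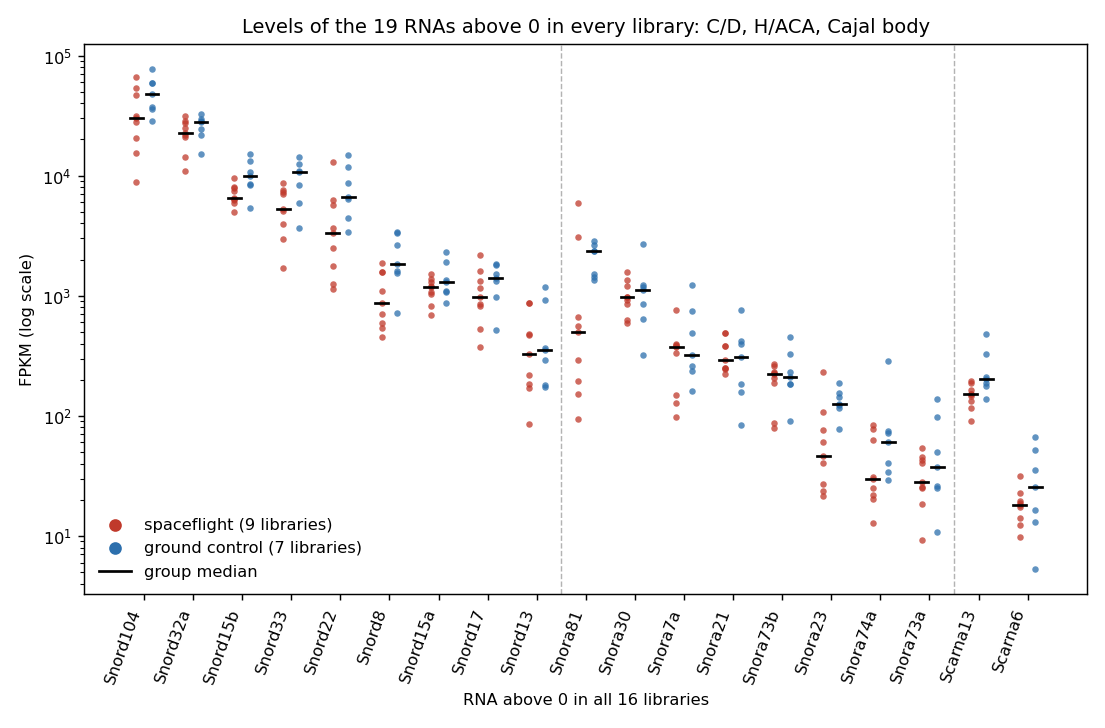
FPKM (log axis) of the 19 members above 0 in every library, 1 point per library, spaceflight in red and ground control in blue, with the group median as a black bar; dashed lines divide C/D, H/ACA and Cajal body RNAs. The groups overlap for all 19, and the ground median is higher for all but Snora7a and Snora73b.

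Snord104, the highest member in 8 libraries, lay at 8898, 30132 and 65676 FPKM in spaceflight and at 28634, 47895 and 77300 on the ground. Of the ground libraries, 6 of 7 were above the spaceflight median, and the log2 difference was -0.71 ± 0.43 (SE), or -0.20 with M21 as ground control. Snord99, of 56 bases, was at 0 in 5 of the 9 spaceflight libraries and reached 92702 in another, while all 7 ground libraries had values, from 17600 to 184235. It could not enter the fit over entries seen in every library.

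The Rpl13a introns hold 4 members, Snord32a, Snord33, Snord34 and Snord35a, which guide the methylation of ribosomal RNA. Snord32a lay at 10962, 22747 and 31559 in spaceflight and 15058, 27832 and 32540 on the ground, with a log2 difference of -0.21 ± 0.29. Snord33 lay at 1694, 5236 and 8603 in spaceflight and 3692, 10639 and 14201 on the ground. All 9 spaceflight libraries were below the ground median, the groups overlapped, and the log2 difference was -0.82 ± 0.35 (limma, adjusted p = 0.41). Snord34 was above 0 in 1 spaceflight and 1 ground library, and Snord35a in none and 2, the latter being M32 and M36. Their host Rpl13a differed by -0.23 ± 0.12 (limma, adjusted p = 0.46). RNAs cut from introns of a single transcript thus stood at mean FPKM of 23911, 7229, 486 and 13.4, in 4 different lengths. Their order in RNA amount is not shown by these values.

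Snord22, from the non-coding host Snhg1, lay at 1127, 3337 and 12985 in spaceflight and 3398, 6646 and 14895 on the ground. All 7 ground libraries lay above the spaceflight median. The log2 difference was -1.17 ± 0.47 (limma, adjusted p = 0.38), while Snhg1 itself differed by 0.06 ± 0.14. Snord8, from an intron of Chd8, lay at 451, 865 and 1883 in spaceflight and 718, 1834 and 3379 on the ground, and differed by -1.06 ± 0.35 (limma, adjusted p = 0.35). Snord15b, from an intron of Rps3, lay at 5010, 6521 and 9596 in spaceflight and 5414, 9975 and 15110 on the ground, and differed by -0.50 ± 0.22 (limma, adjusted p = 0.43). The 9 spaceflight values of Snord15b were all below the ground median.

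Snora81, from an intron of the translation factor gene Eif4a2, had the widest spread among the members seen in every library, 62.9 times from lowest to highest. It lay at 93.4, 495 and 5872 in spaceflight and 1345, 2355 and 2867 on the ground. The 7 ground libraries lay within a narrow range above the spaceflight median, and the spaceflight group held both the lowest and the highest of the 16 values. The log2 difference was -1.94 ± 0.68 (limma, adjusted p = 0.36). Snora23, from an intron of the importin gene Ipo7, lay at 21.3, 46.6 and 230 in spaceflight and 77.3, 126 and 189 on the ground. It had the lowest adjusted p of the 19 members, with a log2 difference of -1.30 ± 0.40 (limma, adjusted p = 0.35). The host Eif4a2 differed by 0.22 ± 0.14 and the host Ipo7 by 0.06 ± 0.11. Snora74a, from an intron of Snhg4, lay at 12.7, 29.7 and 84.1 in spaceflight and 29.3, 61.0 and 284 on the ground, with a log2 difference of -0.89 ± 0.46 (limma, adjusted p = 0.47). It was -0.53 without M36, whose value of 284 stands apart, and -0.40 without M32 and M36.

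The most abundant of the other H/ACA RNAs had smaller differences. Snora30 lay at 593, 967 and 1575 in spaceflight and 320, 1117 and 2690 on the ground, and Snora21, the only one of the 19 with a positive difference, lay at 221, 291 and 487 and at 84.5, 306 and 767. Their log2 differences were 0.00 ± 0.33 and 0.26 ± 0.35. Snora7a, from an intron of Rpl32, differed by -0.49 ± 0.45. All 3 had adjusted p of 0.66 or more (limma).

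The members that act in ribosomal RNA cutting and folding were Snora73a, Snora73b, Snord13 and Snord118. Snora73b lay at 79.3, 223 and 271 in spaceflight and 90.1, 211 and 452 on the ground, about 5 times above its near copy Snora73a in the mean over 16 libraries (216 against 42.0). Their log2 differences were -0.25 ± 0.31 and -0.50 ± 0.46, and that of their host Snhg3 was 0.20 ± 0.19. Snord13 lay at 85.7, 329 and 870 in spaceflight and 175, 354 and 1179 on the ground, and differed by -0.29 ± 0.50. Snord118, the U8 RNA, lay between 7.03 and 63.2 in spaceflight and was at 0 in M40 and up to 159 in the other ground libraries. The lowest adjusted p of the first 3 was 0.66 (limma).

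**Figure D5:**
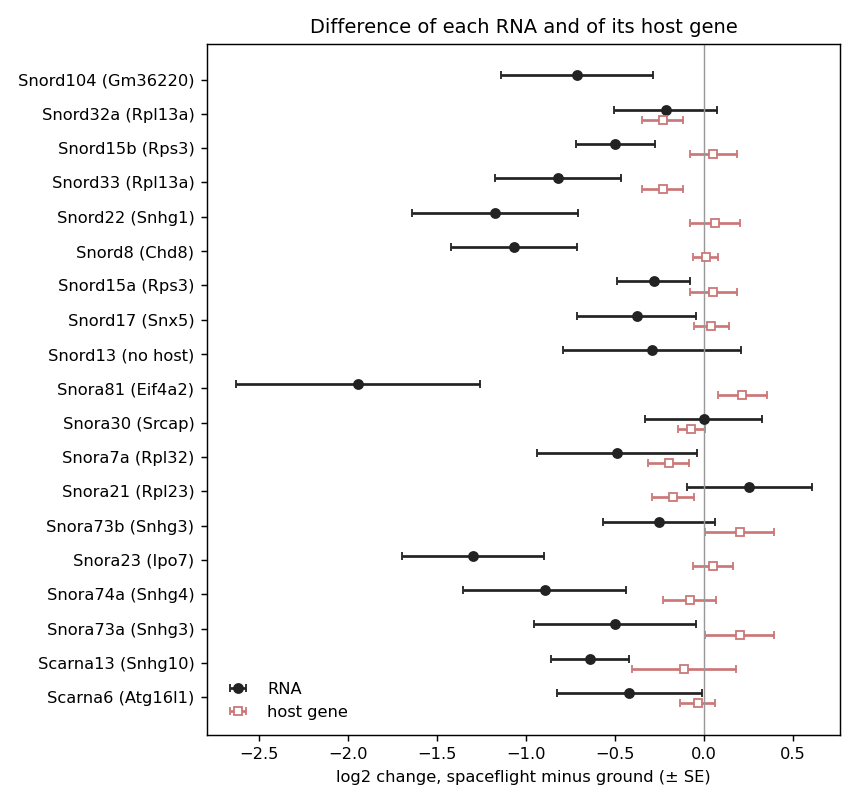
log2 difference, spaceflight minus ground, with its SE, for the 19 members tested (black) and for the gene that hosts each in an intron where that gene was tested (open squares). The members range from -1.94 to 0.26, and their hosts from -0.23 to 0.22.

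Of the 9 Cajal body members, 2 were seen in every library. Scarna13 lay at 90.9, 152 and 197 in spaceflight and 138, 202 and 481 on the ground. All 9 spaceflight libraries were below the ground median, and the log2 difference was -0.64 ± 0.22 (limma, adjusted p = 0.35). Its host Snhg10 differed by -0.11 ± 0.29. Scarna6, from an intron of the autophagy gene Atg16l1, lay at 9.71, 18.2 and 31.6 in spaceflight and 5.29, 25.7 and 66.5 on the ground, with a log2 difference of -0.42 ± 0.41. Without M32 and M36 it was 0.12. Scarna9 and Scarna10 were at 0 in all libraries. Scarna3b was above 0 in M36 only, Scarna8 in M32 and M36 only, Scarna17 in 2 spaceflight and 3 ground libraries, and Scarna3a in 2 and 4.

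Scarna2 was listed at 0 in all 9 spaceflight libraries. On the ground it was at 0 in M33 and M40, at 1375 FPKM in M36, at 4035 in M32, at 6356 in M35, at 8952 in M34 and at 16065 in M31. The groups thus met only at 0, and no fold is given against a group at 0. With the looser filter of a mean of 1 FPKM or more, which took 75 members and 14323 entries, Scarna2 was the only member called, and it was lower in spaceflight (limma, adjusted p = 0.22). It passed this filter only through the ground libraries, where it had values, so its call is no support beyond the values listed above. No member was called higher. Over all entries of that fit 7 (0.0489%) were called higher and 14 (0.0977%) lower.

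Of the 15 other members of 59 to 63 bases, 1 was above 0 in M31 and M34, 4 in M35 and 6 each in M32 and M36. Scarna2 stood at 1.16 and 1.18 times the value of Scarna17, which is 1 base longer, in M34 and M36, and at 0.506 times in M32. In M32 the lowest of the 15 others was at 973 FPKM, below the 4035 of Scarna2. In the spaceflight libraries 0 to 5 of those 15 members were above 0, and in M23 none of the 16 was. The call on Scarna2 was lost without M32 and M36 (limma, adjusted p = 0.60), with M21 counted as ground control (0.68), with the eye as a covariate (0.31) and in right retinas alone (0.36). It was lost likewise on leaving out any one of M21, M24, M25, M26, M27, M29, M30, M32, M34 or M36, with adjusted p from 0.31 to 0.51 in those fits (limma).

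Among the entries of the first fit, the 5 whose log2 values ran most nearly like those of Scarna2 over the 16 libraries were Bccip, Gm12070, Isoc2a, Aqp1 and Ptma, with Pearson r from 0.76 down to 0.68. None is a member. With 11 of the 16 Scarna2 values at 0, these coefficients mostly divide the libraries into those with and without a value.

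Several other members were at 0 in more of the spaceflight than of the ground libraries. Snora28, from an intron of Eif5, was at 0 in 5 of 9 spaceflight libraries and reached 158, while all 7 ground libraries lay from 35.1 to 155 (limma, adjusted p = 0.37). Snora33, from an intron of Rps12, was above 0 in 3 spaceflight and 6 ground libraries (adjusted p = 0.39, limma). Snord95, of 68 bases, was above 0 in no spaceflight and 3 ground libraries, so that it passed the looser filter only through the ground group. Its values were 478 FPKM in M32, 489 in M36 and 3459 in M34. Snord110, of 59 bases, was above 0 in 2 spaceflight and 5 ground libraries. M32 and M36, the libraries with the fewest zeros, were among the ground libraries above 0 for Snora33, Snord95 and Snord110. Snord99 had an adjusted p of 0.37 (limma). No fold is given for these, since each was at 0 in 5 or more of the 16 libraries. Other members went the other way. Snord55 was above 0 in 3 spaceflight libraries and 1 ground library, and Snora41 in 5 and 3. Snord11, Snord14c, Snord85 and Snord87 were each above 0 in 1 spaceflight library and 0 ground libraries. Of the 75 members in the looser fit, 55 had a negative difference. That count was not made over all 14323 entries of the looser fit, so it is no result about the members. In the first fit 6440 of all 12460 entries tested had a negative difference. The same comparison of zeros was not made over all entries.

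The imprinted Snord116 and Snord64, from the host Snhg14 in the region whose loss causes Prader-Willi syndrome, were at 0 in all 16 libraries, as were Snord116l1, Snord116l2 and Snord47 of Gas5. The copies Snord116l1 and Snord116l2 have identical sequences of 90 bases. Snord14c and Snord14d differ by 2 of 87 bases and Snord1b and Snord1c by 2 bases, so their separate values are uncertain.

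The call on members depended on single libraries of both groups. Without M31, 8 of the 19 members were called lower and none higher, in a fit in which 653 (5.19%) of the 12578 entries were called higher and 747 (5.94%) lower. The 8 were Scarna13, Scarna6, Snora23, Snora81, Snord15b, Snord22, Snord33 and Snord8. Without M33 4 members were called lower, in a fit with 416 of 12483 entries called higher and 338 lower. Without M35 4 members were, with 528 of 12483 entries called higher and 357 lower. Without M22 1 member was, with 192 of 12468 entries called higher and 153 lower. Without M29 1 member was, with 4 of 12471 entries called higher and 5 lower. Without M32 and M36 no member was called and the median log2 difference of the 19 members was -0.19. That of Snora73a was then -0.19, that of Snord13 -0.066, that of Snora7a 0.030 and that of Snora21 0.00081. With M21 as ground control the median was -0.27, with Snord33 at -0.33, Snord22 at -0.65, Snord8 at -0.68, Snora23 at -0.85, Snora81 at -1.26, Snora7a at -0.20, Scarna6 at -0.24, Snora73a at -0.030, Snora73b at 0.044 and Snord32a at 0.057. In right retinas alone the median was -0.81, with Snord13 at -1.31, Scarna6 at -0.98, Snora73b at -0.49, Snora30 at -0.31, Snord15b at -0.81 and Snora21 at -0.036. M31 had the lowest share of FPKM held by members among the ground libraries (7.95%), and the labels name no reason for any of these differences.

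The proteins of the same particles showed no called difference. The 8 tested core proteins, among them fibrillarin (Fbl), Nop56, Nop58 and dyskerin (Dkc1), had log2 differences from -0.36 to 0.11 with a median of -0.04, and none was called. Nop10, a core protein of H/ACA particles, had the largest, -0.36 ± 0.13 (limma, adjusted p = 0.37). Fbl stood at 16.7 ± 1.71 FPKM in spaceflight and 17.7 ± 2.54 on the ground (SD, n = 9 and 7). Of 16 assembly and Cajal body factors, 15 were tested and none was called, with a median of -0.04. Coil, the marker protein of Cajal bodies, differed by -0.06 ± 0.11, and Wrap53, which brings Cajal body RNAs to them, by -0.04 ± 0.12. Of the 11 non-coding host genes tested none was called, with log2 differences from -0.40 to 0.34 and Gas5 at 0.08 ± 0.17. The lowest was that of Snhg12, the host of Snord99, at -0.40 ± 0.22 (limma, adjusted p = 0.48). The percentages called over all entries are those of the first fit.

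The 6 retina markers Gnat1, Sag, Pde6b, Grm6, Rlbp1 and Glul were all tested and none was called, with summed FPKM of 7710 to 16076 in spaceflight and 10647 to 16191 on the ground. Traces of neighbouring tissues varied between libraries in both groups. The 4 lens markers summed to 0.324 to 19582 FPKM in spaceflight and 3.87 to 31059 on the ground, and the 4 pigment epithelium markers to 852 to 5391 and 1521 to 8018. The 4 cornea and skin markers summed to 8.36 to 721 in spaceflight and 9.04 to 68.0 on the ground, and the 4 melanocyte markers to 77.2 to 559 and 55.1 to 1033. Blood markers stayed at 4.09 or less in every library. The part of these tissues in the members' values was not tested.

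DNA methylation was read at few members. In 16 DNA libraries, 8 of spaceflight and 8 of ground control mice, 49 CpG cytosines inside 7 members had 10 or more reads in every library. With each of these 7 members given equal weight, the mean methylation was 4.64% ± 0.939 in spaceflight and 4.38% ± 0.982 on the ground (SD, n = 8 and 8). It is not the mean over the 49 cytosines. Snord65, with 1 cytosine, weighs most in it, since the group means of the other members lay from 0.0975% to 6.11%. The 9 cytosines of Scarna2 were at 0.511% ± 0.380 and 0.298% ± 0.292, with 1.30% in the highest library, so the Scarna2 body was nearly free of methylation in all 16 mice. The 15 cytosines of Snord104 were at 0.467% ± 0.411 and 0.273% ± 0.273, and the 5 of Snora73b at 4.46% ± 2.83 and 6.11% ± 3.50. Snord65 had 1 cytosine, at 25.7% ± 6.69 and 22.9% ± 4.14. The lowest coverage was 16 reads in Scarna2 and 35 in Snord65, and every difference between the groups was smaller than the larger SD. The differences were not tested.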

How the data were processed

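RNA-seq (9 spaceflight and 7 ground control retinas) and reduced representation bisulfite sequencing (8 and 8) were used. The authors trimmed reads with Trimmomatic, aligned them with TopHat2 to GRCm38 and deposited FPKM per gene from Cufflinks, with an annotation version not given in the sources used here. The deposited methylation calls hold the count of reads (coverage) and the percent methylated per CpG cytosine. The paper reports the numbers of reads sequenced, but they were not used here, so no counting error is given. In addition, 2 columns of the table that no library used here matches were left out. Library fragments were longer than most of these RNAs by the study's methods. Ground columns other than M31 were assigned by group only, and the eye by library identifier.

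FPKM were tested as log2(FPKM + 0.1) with limma 3.58.1 (trend, Benjamini-Hochberg) in R 4.3.3. On simulated data for this comparison (12460 genes, 200 changed), 99% of 2-fold and of 4-fold changes were recovered. The 200 were drawn at random from all entries, with independent noise. The members tested had SE of 0.20 to 0.68, and recovery at such SE was not examined, so the 99% does not stand for them. Named members were those called, the 8 with the lowest p, the 5 highest by mean in each class, every Scarna and fixed groups; Snora28, Snora33, Snord95 and Snord110 were added after their values were seen. The members, lists and tests were chosen with earlier results of these data known. Alternatives covered pseudocount, filter, scaling, M21, eye, trend and leaving out each library. Part of the retina marker list is not reported here.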

Additional observations from a re-analysis of the deposited data

Results flagged for a closer look

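In 46 groups of values (19 members and 4 shares in each group of mice), 4 held a library set apart from the rest by Dixon's ratio. The cutoff is made to set apart about 1 in 20 separate groups of normally spread values. Here the groups share libraries, and the share of all members is mostly the C/D share. The 4 of 46 can therefore not be set against that rate. Snora74a stood at 284 FPKM in the ground library M36, against 29.3 to 75.4 in the other 6 ground libraries. In the ground library M31, all members held 7.95% of all FPKM, against 12.4% to 15.4% in the others, and the C/D members held 6.70%, against 11.6% to 15.1%. In the spaceflight library M25 the Cajal body members held 0.698%, against 0.00833% to 0.305% in the other 8.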

How the results depend on the processing

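Read depth was not used, and members under 80 bases move in large steps of FPKM. Over all entries, 24 were called, against 13 with a pseudocount of 1, 15 without trend, 8 with the eye as covariate, 7 rescaled without short structured RNAs, 3 without M32 and M36 (chosen after seeing the data), 1 in right retinas and 0 with M21 as ground control (943 had an unadjusted p under 0.05 in limma there). Leaving out 1 library gave 0 to 1400. With a mean of 1 FPKM or more 21 were called, against 11 rescaled, 1 without M32 and M36, 0 with M21 as ground, the eye or right retinas only (unadjusted p under 0.05 in limma for 998, 1454 and 1907), and 0 to 1368 leaving out 1 library. Members called went from 0 to 1 with a mean filter or none, and leaving out 1 library gave 0 to 8. With the mean filter the 1 called member was lost, leaving 0, with M21 as ground, the eye, right retinas only or without M32 and M36, and leaving out 1 library gave 0 to 15. The median log2 difference of members stayed negative, from -0.70 to -0.29 when leaving out 1 library. Group differences of shares, spaceflight minus ground, were -21.1, -19.2, -0.35 and -1.48 percentage points (all, C/D, H/ACA and Cajal body) when taken relative to entries other than short structured RNAs. They were -2.12, -1.75, -0.026 and -0.34 with M21 as ground and -5.86, -5.35, -0.12 and -0.39 in right retinas, against -3.37, -2.91, -0.045 and -0.42 in all. Leaving out 1 library gave -4.16 to -2.90, -3.76 to -2.37, -0.068 to -0.026 and -0.50 to -0.27. Of 468 recomputed differences of 18 named members, 419 kept direction and call, 18 gained a call and 17 changed sign. The other 14, all of Scarna2 with the mean filter, lost the call. Of the 18 members only Scarna2 had a call to keep, and for the rest the same call means that they stayed uncalled. The count of 419 is therefore no measure of how firm the differences are. Signs changed for Scarna6 (0.12), Snora7a (0.030) and Snora30 (0.035) without M32 and M36, Snora30 rescaled (0.085) and with the eye (0.043), Snora21 in right retinas (-0.036), and Snora73b (0.044) and Snord32a (0.057) with M21 as ground. Leaving out 1 library gave -0.26 to 0.25 for Snora30 and -0.019 to 0.51 for Snora21. Members at 0 in all libraries numbered 47 to 49 when leaving out 1 library. The causes were not tested. No paired analysis was made, since the spaceflight and ground mice were different animals.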
